A study of Mus musculus with 12 samples.

Results

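Sarcomere and muscle excitation genes were followed through the growth of the mouse maxillary prominence. They are 51 named genes out of 53801 gene identifiers in the deposited count files, chosen by function as contractile, calcium handling and endplate genes and matched to identifiers by symbol, and all 51 were found. The tissue is the paired facial swelling that forms the upper jaw and the palatal shelves. Intact prominences were dissected from wild type C57BL/6 embryos at 4 ages, embryonic days 10.5, 11.5, 12.5 and 14.5 (E10.5 to E14.5), and polyadenylated RNA was sequenced in 3 libraries per stage, 12 in all. No group carried a transgene, a deletion or a treatment, so age is the labelled difference between groups. Each library pooled tissue from several embryos: the protocol names 7 littermates without saying whether they made 1 library or 1 stage. Separate litters are not mentioned, so a p-value here reflects only how far these libraries spread, which may be technical. E14.5 has a protocol text of its own, apart from that of the 3 younger stages, so age and handling cannot be told apart at the last step, and E14.5 replicate 1 was deposited under a title with 2 part numbers and used as 1 library.

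Skeletal muscle shortens when myosin motors of the thick filament pull on actin of the thin filament, inside a repeating unit, the sarcomere, that is bounded by Z-discs. A nerve signal opens acetylcholine receptors at the endplate, the membrane depolarises, a voltage sensor in the transverse tubule opens the calcium release channel of the sarcoplasmic reticulum, and calcium bound to troponin frees actin for myosin. Muscle cells of the face come from cranial mesoderm that moves into the facial prominences, and they first make embryonic and perinatal forms of several of these proteins, which fibre-specific adult forms later replace.

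Libraries held 28.3e6 to 33.9e6 counts in genes. Alignments that fell outside annotated genes moved with stage: E10.5 replicates 1, 2 and 3 had 2.67%, 1.92% and 4.88%, the E11.5 libraries 2.16% to 2.42%, those of E12.5 5.03% to 5.43% and those of E14.5 5.78% to 6.21%. Levels are counts scaled to 1e6 counts in genes (CPM), given in the order of replicates 1, 2 and 3. Log2 fold changes and adjusted p-values come from edgeR's quasi-likelihood test across 18365 genes with Benjamini-Hochberg adjustment, and a gene is called changed at an adjusted p under 0.05.

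Promoter letters are shown for 5 members whose messages rose together later on and whose windows hold recognition sequences of the transcription factor families best known from muscle genes. RefSeq windows of 250 bases before the start (build GRCm38.p6) were found for 37 of the 51 members, in 43 windows. The last 200 bases before the start are printed, on the strand of the gene, and capitals mark CAGCTG (an E-box of the form that myogenic basic helix-loop-helix factors favour), the TATA box TATAAA, the MEF2 box and the CArG box bound by serum response factor. Acta1, skeletal muscle alpha-actin, lies on the minus strand (window chr8:123894776-123894975), with a CArG box starting 73 bases and TATAAA 7 bases before the start. That RefSeq start lies upstream of the GENCODE start of Acta1 (123894751). Distances counted from the GENCODE start would be longer. Actc1, cardiac muscle alpha-actin (minus strand, chr2:114052876-114053075), has a CArG box at 47 bases, and its window lies inside the longer GENCODE gene and holds 12 exon bases.
Acta1: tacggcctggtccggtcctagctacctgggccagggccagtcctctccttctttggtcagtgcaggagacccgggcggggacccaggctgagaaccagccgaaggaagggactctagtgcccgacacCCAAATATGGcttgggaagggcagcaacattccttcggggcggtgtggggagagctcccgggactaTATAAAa
Actc1: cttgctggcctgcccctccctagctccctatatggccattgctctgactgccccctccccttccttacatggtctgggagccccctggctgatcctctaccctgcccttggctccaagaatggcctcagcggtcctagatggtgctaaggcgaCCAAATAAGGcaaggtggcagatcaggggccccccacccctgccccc
Chrna1 and Chrng, the alpha and gamma subunits of the muscle acetylcholine receptor, and Klhl41, a stabiliser of the thin filament, carry CAGCTG. It starts 92 and 44 bases before the start of Chrna1 (minus strand, chr2:73580339-73580538), 155 and 132 bases before that of Chrng (plus strand, chr1:87205611-87205810, inside the longer GENCODE gene, with 1 exon base) and 127 bases before that of Klhl41 (plus strand, chr2:69669920-69670119), which also has a MEF2 box at 63 bases.
Chrna1: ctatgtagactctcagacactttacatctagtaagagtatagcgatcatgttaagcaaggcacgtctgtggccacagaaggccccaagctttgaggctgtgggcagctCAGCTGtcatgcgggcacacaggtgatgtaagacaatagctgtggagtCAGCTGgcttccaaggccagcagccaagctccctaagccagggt
Chrng: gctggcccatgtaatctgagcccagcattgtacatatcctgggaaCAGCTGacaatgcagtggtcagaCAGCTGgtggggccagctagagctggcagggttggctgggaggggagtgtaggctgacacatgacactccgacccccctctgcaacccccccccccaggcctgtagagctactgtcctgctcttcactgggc
Klhl41: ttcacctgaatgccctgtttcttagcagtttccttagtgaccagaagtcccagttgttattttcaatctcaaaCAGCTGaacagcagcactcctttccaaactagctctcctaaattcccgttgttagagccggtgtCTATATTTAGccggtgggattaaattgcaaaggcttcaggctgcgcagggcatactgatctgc

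Over both strands, CANNTG was present in 36 of the 43 member windows (83.7%) and in 66.2% of all 32841 windows of the same length. CAGCTG, which is counted within CANNTG, was in 21 member windows (48.8%) against 13.0% of all. The MEF2 box was in 5 (11.6%) against 2.92%, and the CArG box in 5 (11.6%) against 1.47%. TATAAA, read on the strand of the gene, was in 3 (6.98%) against 7.59%. A match describes the letters of a window and is not a measured binding site.

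Muscle messages were rare in the prominence until E11.5 and abundant by E14.5. The 51 members summed to 59.2, 59.9 and 72.2 CPM at E10.5, 66.0, 84.2 and 60.5 at E11.5, 314, 707 and 398 at E12.5 and 4515, 4358 and 3618 at E14.5. E10.5 and E11.5 libraries overlapped, every E12.5 library was above them, and every E14.5 library was above every E12.5 library. As a share of all counts in genes, the members made up 0.00638% on average at E10.5 and 0.416% at E14.5. The mean sum was 6.74 times higher at E12.5 than at E11.5 and 8.80 times higher at E14.5 than at E12.5. Without E12.5 replicate 2, which stands above the other 2 libraries of its stage, these ratios were 5.07 and 11.7. In bulk tissue, fewer muscle cells and less RNA per muscle cell cannot be told apart.

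**Figure D1:**
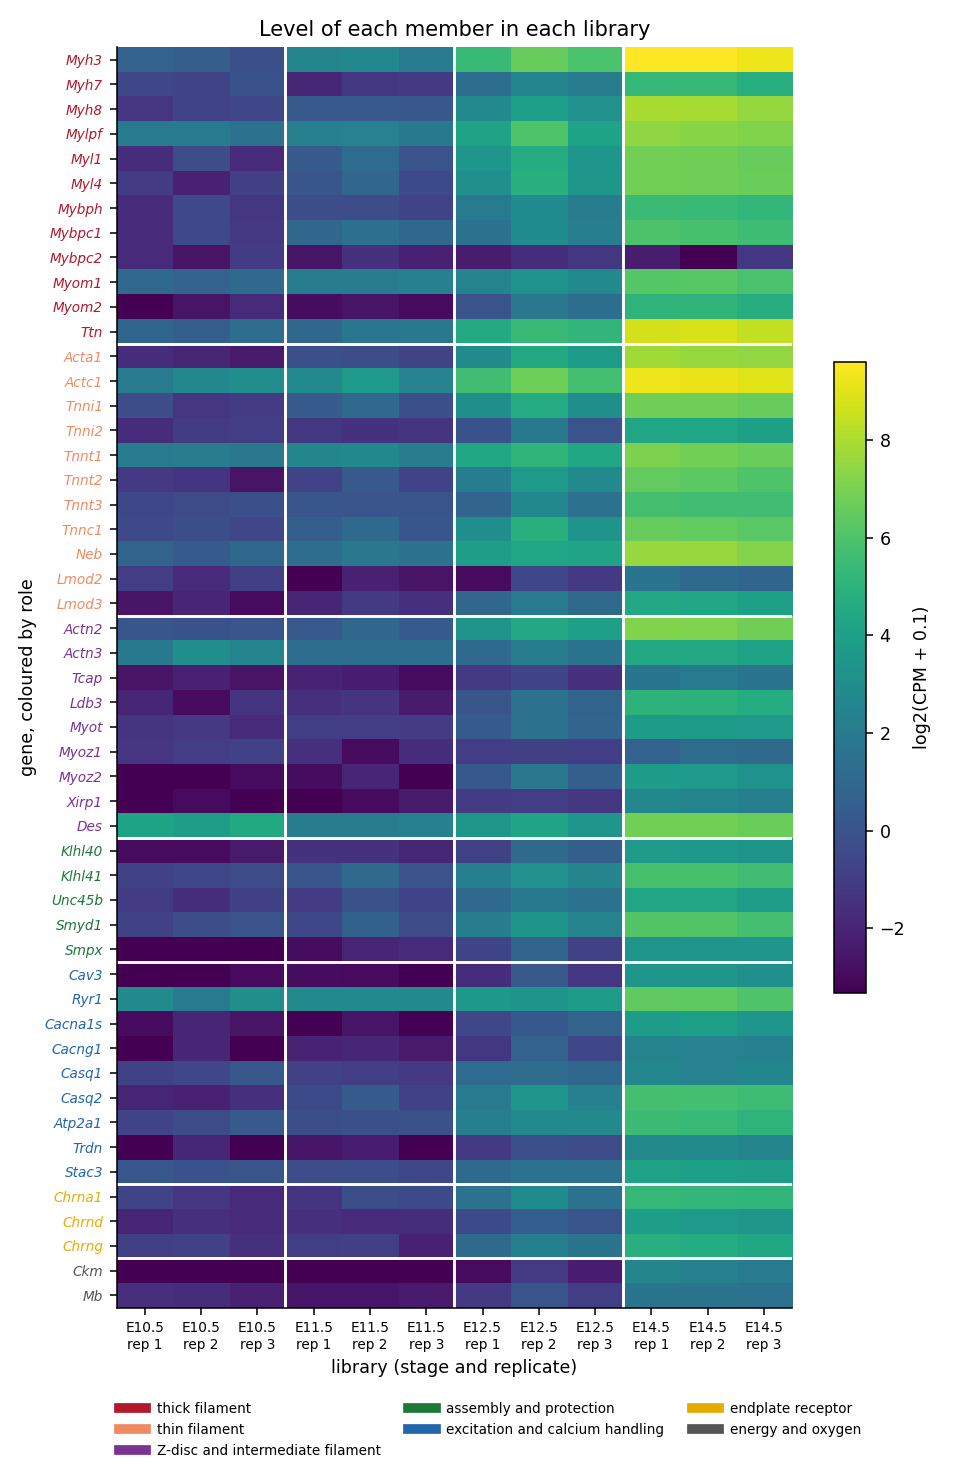
Heat map of log2(CPM + 0.1) for the 51 genes (rows, coloured by role) in the 12 libraries (columns, by stage and replicate), with white lines between roles and stages. The E14.5 columns are the brightest in nearly every row, Des and Ryr1 are already visible at E10.5, and Mybpc2 stays dark throughout.

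The genes did not appear all at once. With 1 CPM in all 3 libraries of a stage as the mark, 9 members were present at E10.5: Mylpf, Myom1, Ttn, Actc1, Tnnt1, Neb, Actn3, Des and Ryr1. Another 4, Myh3, Myh8, Mybpc1 and Actn2, reached it at E11.5, 21 at E12.5 and 16 at E14.5. Mybpc2, the fast form of myosin binding protein C, never did. This mark takes no account of gene length, so long genes pass it more easily. Per kilobase of merged exon, Ttn and Neb had 0.0158 and 0.0598 CPM at E10.5, and Mylpf and Actc1 3.26 and 3.74. Tnnc1, which passed only at E12.5, had 0.623 at E10.5. The order in which members passed is therefore not an order of transcript number. The mean was under 1 CPM for 41 members at E10.5, 33 at E11.5, 12 at E12.5 and 1 at E14.5, when 13 members exceeded 100 CPM.

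Between E10.5 and E11.5 the number of members called depended on the fit. Of the 51 tested, edgeR found 8 higher (Myh3, Myl1, Mybpc1, Myom1, Neb, Klhl41, Smpx and Casq2) and 2 lower (Des and Actn3), against 12.2% of all genes called higher and 12.9% called lower. The members called higher are 15.7% of the 51. Their median log2 fold change was 0.52, beside -0.04 over all genes tested. Libraries of the stages did not overlap for 20 members in the higher direction (21.9% of all genes) and 7 in the lower (19.2%). DESeq2 called 15 higher and 4 lower, limma-voom 4 and 2, and edgeR with no filter on low counts 20 and 4. Single libraries moved the count called higher as well. It was 4, 5 and 4 without E10.5 replicates 1, 2 and 3, 3 without E11.5 replicate 2, 5 without E14.5 replicate 2 and 17 without E12.5 replicate 2, a library that enters this step only through the shared estimate of the spread. Without E12.5 replicate 1 or 2, 4 members were called lower. Calls for Myh3, Mybpc1, Myom1, Des and Actn3 held in each of these fits.

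From E11.5 to E12.5 nearly the whole set rose. Of the 51 genes, 48 were higher and 0 lower, against 27.1% and 22.2% of all genes, and the 3 not called were Actn3, Lmod2 and Mybpc2. The median log2 fold change was 2.72, or 2.67 with Ckm, which had no count at E11.5, set at its lower bound, beside 0.06 over all genes. For the same 48 genes every E12.5 library was above every E11.5 library, which held for 42.9% of all genes. No member had an estimate below 0, and at an unadjusted p under 0.05 edgeR, limma-voom and DESeq2 each found 0 lower. The outside-gene share of alignments does not overlap between these stages. With that share as a covariate, 9 of the 51 were called higher (Myh3, Myh7, Ttn, Tnnt1, Neb, Actn2, Atp2a1, Stac3 and Chrng), and the median was 1.95. Stage and that share cannot be told apart within E11.5 and E12.5.

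From E12.5 to E14.5 the rise went on. Here 50 of the 51 were higher and 0 lower, against 23% and 24% of all genes, and the same 50 did not overlap between stages (31.7% of all genes). The median log2 fold change was 2.95 over 2 days, which is 1.48 per day, beside 2.72 over the single day before it, and -0.01 over all genes. Mybpc2 was the member not called, and its estimate of -0.58 was the 1 estimate below 0. The count of members at an unadjusted p under 0.05 in the lower direction was 0 with edgeR, limma-voom and DESeq2. All 51 genes passed the filter on low counts, often only through their later stages, so these counts describe the set and do not test it.

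**Figure D2:**
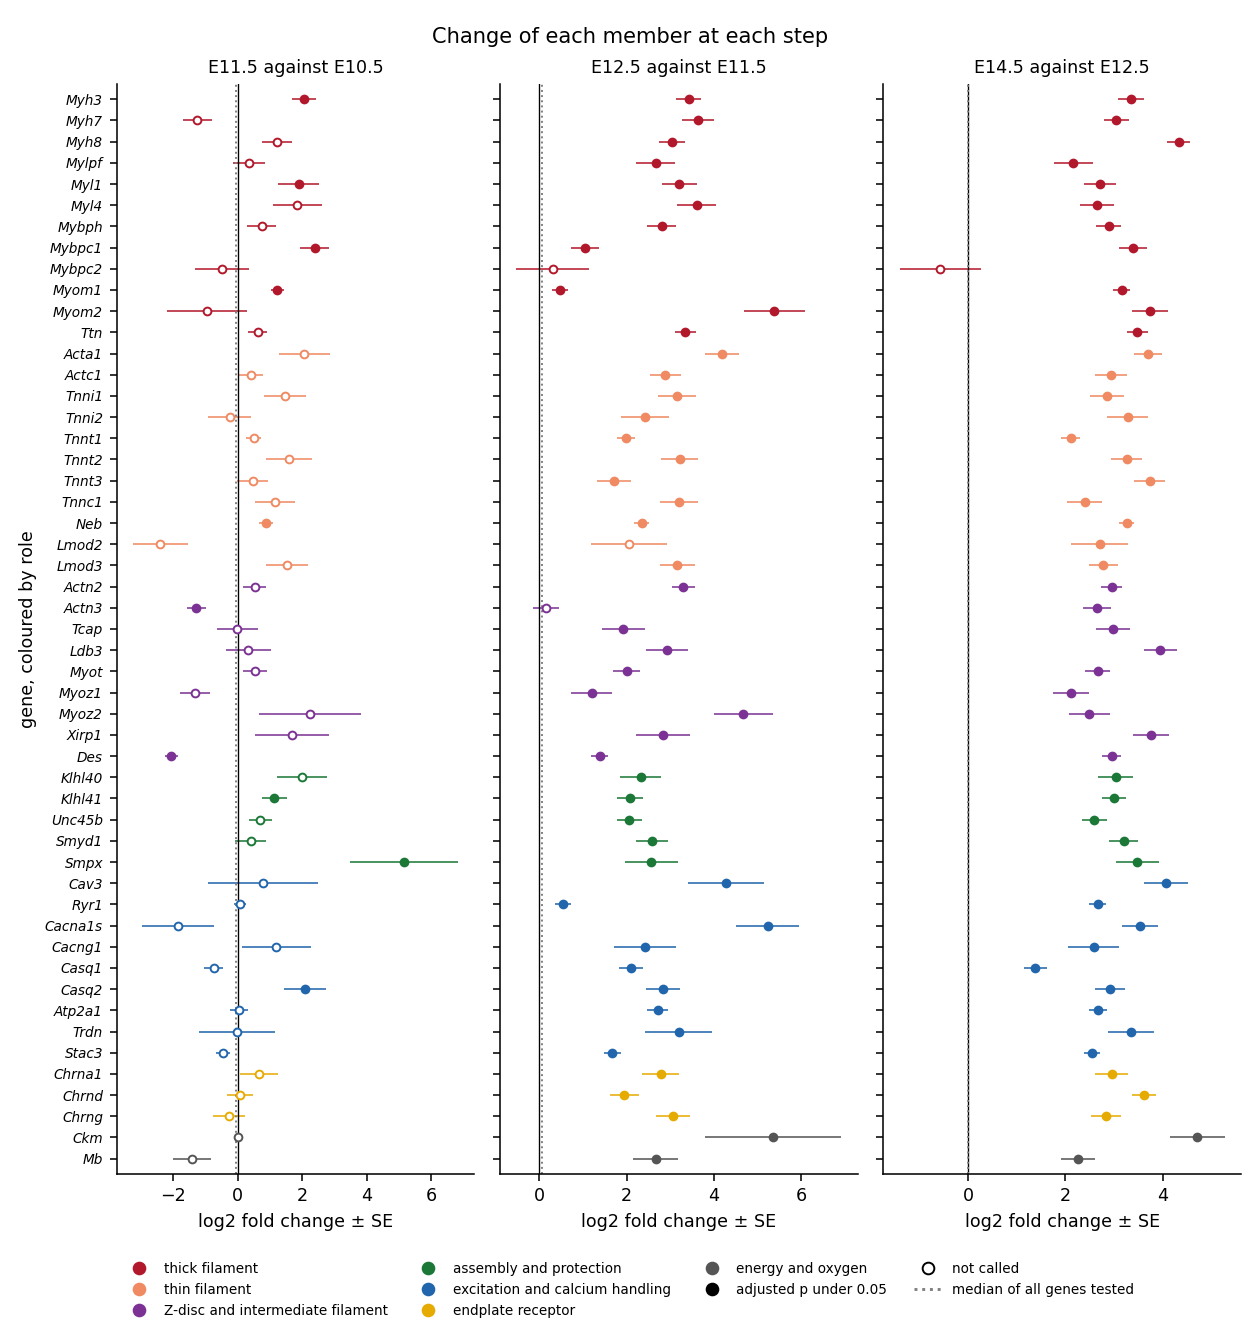
Log2 fold change ± SE of each gene (rows, coloured by role) at the 3 steps, with filled points for adjusted p under 0.05 and a dotted line at the median of all genes tested. Points straddle 0 at the first step and lie to its right at the other two, Mybpc2 at the last step excepted, and the values of Smpx at the first step and Ckm at the second are fitted against a stage without counts.

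The thick filament carries the myosin motors and the proteins that order them. Of its 12 members, 4 rose at E11.5, 11 at E12.5 and 11 at E14.5. The E11.5 count higher was 7 with DESeq2 and with no filter on low counts, and 3 to 6 with 1 library left out. Counts of this and the following role groups are to be read beside the shares of all genes. Those were 12.2%, 27.1% and 23% called higher and 12.9%, 22.2% and 24% called lower at the 3 steps. Myh3, the embryonic myosin heavy chain (ENSMUSG00000020908, chromosome 11, 67078300 to 67102291, plus strand), measured 1.56, 1.39 and 0.785 CPM at E10.5, 5.72, 6.38 and 3.89 at E11.5, 42.3, 95.3 and 61.3 at E12.5 and 769, 759.9 and 603 at E14.5. No 2 consecutive stages overlapped for Myh3, and the steps were 2.06 (SE 0.37, edgeR adjusted p = 0.0012), 3.42 (SE 0.29, edgeR adjusted p = 2.78e-06) and 3.35 (SE 0.26, edgeR adjusted p = 7.53e-07). Mylpf, the fast regulatory light chain (ENSMUSG00000030672, chromosome 7, 127208890 to 127214298, plus strand), measured 3.85, 3.81 and 2.73 CPM at E10.5, 4.9, 5.11 and 3.61 at E11.5, 17.0, 64.7 and 17.8 at E12.5 and 174, 156 and 143 at E14.5. It was present in each E10.5 library, and E12.5 replicate 2 stood far above the other 2 libraries of its stage. Mylpf rose by 2.67 (SE 0.45, edgeR adjusted p = 0.00041) at E12.5 and by 2.16 (SE 0.40, edgeR adjusted p = 0.000673) at E14.5.

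Myh8, the perinatal heavy chain, measured 0.313, 0.504 and 0.565 CPM at E10.5, 1.15, 1.15 and 1.03 at E11.5, 6.93, 15.7 and 9.1 at E12.5 and 248, 238 and 186 at E14.5. Its rise at E14.5, a log2 fold change of 4.33 (SE 0.24, edgeR adjusted p = 4.32e-08), was larger than that at E12.5, 3.04 (SE 0.30, edgeR adjusted p = 9.53e-06). Myom2, an M-band protein that crosslinks thick filaments, measured 0, 0.063 and 0.188 CPM at E10.5, 0.0329, 0.0638 and 0.0312 at E11.5, 0.894, 3.49 and 2.41 at E12.5 and 33.1, 35.3 and 26.4 at E14.5. It was near the detection limit until E11.5, where its 3 libraries overlapped those of E10.5, and then rose by 5.39 (SE 0.70, edgeR adjusted p = 7.3e-05) and 3.73 (SE 0.37, edgeR adjusted p = 5.04e-06). Myom1, its relative, followed another course and measured 2.06, 1.54 and 2.04 CPM at E10.5, 4.37, 4.4 and 4.77 at E11.5, 5.33, 9.39 and 7.09 at E12.5 and 72.3, 74.9 and 58.5 at E14.5. It rose by 1.23 (SE 0.20, edgeR adjusted p = 0.000656) at E11.5 and by only 0.47 (SE 0.18, edgeR adjusted p = 0.0427) at E12.5, where the call was lost in 10 of the 12 fits that leave out 1 library (0.22 with adjusted p = 0.248 without E12.5 replicate 2), before a rise of 3.16 (SE 0.17, edgeR adjusted p = 4.28e-08) at E14.5.

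Mybpc1, the slow myosin binding protein C, had an early first step as well, 2.39 (SE 0.45, edgeR adjusted p = 0.0017), from 0.188, 0.63 and 0.345 CPM to 1.84, 2.49 and 1.96 CPM. The E12.5 libraries, at 2.81, 7.72 and 4.55 CPM, were above these, with a log2 fold change of 1.05 (SE 0.32, edgeR adjusted p = 0.0167) that was not called without E11.5 replicate 1, E11.5 replicate 3 or E12.5 replicate 2 (adjusted p = 0.0617, 0.0556 and 0.099). At E14.5 it reached 62.7, 56.7 and 47.4 CPM. Mybpc2, the fast paralog, measured 0.188, 0.063 and 0.377 CPM at E10.5, 0.0657, 0.255 and 0.125 at E11.5, 0.0958, 0.224 and 0.33 at E12.5 and 0.104, 0 and 0.324 at E14.5, and all 4 stages overlapped.

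Ttn, the giant spring that spans from Z-disc to M-band, measured 1.78, 1.42 and 2.35 CPM at E10.5, 1.97, 3.22 and 3.52 at E11.5, 23.7, 43.6 and 36.3 at E12.5 and 435, 446 and 335 at E14.5. Its E12.5 and E14.5 libraries were each above all earlier ones, with log2 fold changes of 3.35 (SE 0.24, edgeR adjusted p = 1.02e-06) and 3.48 (SE 0.21, edgeR adjusted p = 1.1e-07). Myh7, the slow heavy chain, measured 0.563, 0.535 and 0.848 CPM at E10.5, 0.164, 0.319 and 0.343 at E11.5, 2.43, 5.54 and 4.22 at E12.5 and 38.4, 39.9 and 27.3 at E14.5. It is the one heavy chain among the members whose E11.5 libraries all lay under those of E10.5, a difference of -1.25 (SE 0.44, edgeR adjusted p = 0.0532) that missed the threshold. It was called with DESeq2 (adjusted p = 0.015), with the replicate number as a block (adjusted p = 0.0404), in the fit of the 2 stages alone (adjusted p = 0.0435), with no filter on low counts (adjusted p = 0.00138) and without E12.5 replicate 1, E12.5 replicate 2 or E14.5 replicate 3 (adjusted p = 0.026, 0.0319 and 0.0473), and not with limma-voom (adjusted p = 0.238). Myh7 rose at both later steps. Exons of Myh7 share 13.3% of their bases with other annotated genes, and those of Mybph, another thick filament protein called higher at both later steps, 49.9% with Adora1. Myl1 and Myl4, essential light chains, rose by 3.21 and 3.61 at E12.5 and by 2.71 and 2.65 at E14.5.

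The thin filament holds actin, the troponins that make it sensitive to calcium, and nebulin, which runs along its length. Of its 11 members, 1 rose at E11.5 (Neb), 10 at E12.5 and 11 at E14.5. The E11.5 count was 7 higher and 1 lower without E12.5 replicate 2, 2 and 1 without E12.5 replicate 1, 0 and 0 without E11.5 replicate 2, 4 and 1 with DESeq2, 8 and 1 with no filter on low counts and 0 and 0 with limma-voom, and 8 of the 11 were higher without overlap of libraries (21.9% of all genes). Actc1 (ENSMUSG00000068614, chromosome 2, 114047282 to 114053548, minus strand), whose promoter letters are given above, measured 3.72, 6.36 and 8.07 CPM at E10.5, 7.03, 12.3 and 5.23 at E11.5, 49.3, 108 and 53.1 at E12.5 and 621, 584 and 502 at E14.5. The first 2 stages overlapped, and the later ones rose by 2.89 (SE 0.35, edgeR adjusted p = 4.89e-05) and 2.94 (SE 0.33, edgeR adjusted p = 1.59e-05). Acta1 (ENSMUSG00000031972, chromosome 8, 123891769 to 123894751, minus strand) measured 0.219, 0.157 and 0.0942 CPM at E10.5, 0.789, 0.734 and 0.53 at E11.5, 7.44, 23.1 and 12.8 at E12.5 and 215, 195 and 182 at E14.5. It started far lower and rose more steeply, by 4.18 (SE 0.39, edgeR adjusted p = 6.86e-06) and 3.70 (SE 0.29, edgeR adjusted p = 6.57e-07), while its first step, 2.06 (SE 0.79, edgeR adjusted p = 0.0728), was not called, although no library overlapped. That first step was called without E12.5 replicate 1 (adjusted p = 0.0154) or replicate 2 (adjusted p = 0.00373). The coding sequences of both actins are alike, and reads that fit both are not assigned to a gene when counted as multiply mapped.

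Tnnt3, fast troponin T, measured 0.594, 0.661 and 0.785 CPM at E10.5, 0.986, 0.957 and 0.935 at E11.5, 1.73, 6.51 and 2.7 at E12.5 and 55.4, 48.8 and 49.6 at E14.5. It stayed under 1 CPM in all libraries of the first 2 stages, and its main step, 3.73 (SE 0.33, edgeR adjusted p = 1.75e-06), came at E14.5, after 1.71 (SE 0.38, edgeR adjusted p = 0.00283) at E12.5. Tnni2, fast troponin I, lies 54425 bases from Tnnt3 on chromosome 7 and measured 0.219, 0.378 and 0.408 CPM at E10.5, 0.329, 0.255 and 0.28 at E11.5, 0.862, 3.62 and 0.89 at E12.5 and 20.1, 19.2 and 16.4 at E14.5. E12.5 replicate 2 held 4.13 times the mean of its partners, and the steps were 2.42 (SE 0.54, edgeR adjusted p = 0.00282) and 3.28 (SE 0.43, edgeR adjusted p = 4.52e-05). Tnnt1, the slow troponin T, measured 3.91, 4.19 and 3.45 CPM at E10.5, 5.95, 6.38 and 4.39 at E11.5, 20.5, 34.7 and 21.4 at E12.5 and 132, 116 and 100.4 at E14.5. It was present in every E10.5 library and rose by 1.99 (SE 0.21, edgeR adjusted p = 1.98e-05) and 2.11 (SE 0.20, edgeR adjusted p = 3.47e-06), less than Tnnt3 at E14.5.

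Neb measured 1.66, 1.17 and 1.95 CPM at E10.5, 2.43, 3.54 and 2.9 at E11.5, 14.5, 19.6 and 18.3 at E12.5 and 194, 191 and 145 at E14.5. It was among the few members called at each step, by 0.87 (SE 0.21, edgeR adjusted p = 0.00984), 2.35 (SE 0.17, edgeR adjusted p = 1.22e-06) and 3.26 (SE 0.16, edgeR adjusted p = 1.76e-08), the first of which was lost without E11.5 replicate 2 (adjusted p = 0.051). Lmod2, a leiomodin that starts actin filaments, measured 0.406, 0.189 and 0.439 CPM at E10.5, 0, 0.128 and 0.0623 at E11.5, 0.0319, 0.577 and 0.363 at E12.5 and 2.92, 2.05 and 1.77 at E14.5. It was at or under 0.439 CPM in each E10.5 and E11.5 library. Its E11.5 libraries all lay under those of E10.5, a difference of -2.39 (SE 0.85, edgeR adjusted p = 0.0556) that was not called with all libraries. That fall was called with DESeq2, with no filter on low counts and without E12.5 replicate 1 or 2 (edgeR adjusted p = 0.0181 and 0.043). Its E12.5 step of 2.06 (SE 0.87, edgeR adjusted p = 0.0643) was not called with all libraries but was without E12.5 replicate 1 (2.56 with adjusted p = 0.00875). The E14.5 step of Lmod2 was 2.71 (SE 0.58, edgeR adjusted p = 0.00197). Tnni1, Tnnt2, Tnnc1 and Lmod3 rose at E12.5 by 3.15, 3.22, 3.21 and 3.16 and at E14.5 by 2.85, 3.26, 2.40 and 2.78.

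The summed level of the 9 Z-disc and intermediate filament genes went from 23.2, 24.4 and 30.3 CPM at E10.5 to 8.97, 9.32 and 9.41 CPM at E11.5, carried by Des and Actn3, while the median log2 fold change of the group was 0.33. Of the 9, 2 fell and 0 rose at E11.5 (at an unadjusted p under 0.05, 3 fell and 0 rose with edgeR, limma-voom and DESeq2 alike), 8 rose at E12.5 and 9 at E14.5. Des, desmin, the muscle intermediate filament (ENSMUSG00000026208, chromosome 1, 75360329 to 75368579, plus strand), measured 17.8, 14.8 and 22.7 CPM at E10.5, 4.4, 4.12 and 4.95 at E11.5, 11.4, 18.5 and 10.7 at E12.5 and 115, 114 and 104 at E14.5. Its 3 E10.5 libraries were above those of E11.5, and at E12.5 it was back within the E10.5 range in 1 library. Des fell at E11.5, with a log2 fold change of -2.06 (SE 0.20, edgeR adjusted p = 1.08e-05), and then rose by 1.38 (SE 0.20, edgeR adjusted p = 0.000176) and 2.95 (SE 0.19, edgeR adjusted p = 1.68e-07). Actn3, alpha-actinin of fast fibres (ENSMUSG00000006457, chromosome 19, 4861216 to 4877909, minus strand), measured 3.63, 7.84 and 5.59 CPM at E10.5, 2.4, 2.36 and 2.43 at E11.5, 2.01, 4.33 and 2.93 at E12.5 and 21.7, 22.4 and 17.6 at E14.5. It fell at E11.5, with a log2 fold change of -1.29 (SE 0.29, edgeR adjusted p = 0.00607), did not pass at E12.5, with 0.15 (SE 0.30, edgeR adjusted p = 0.696), and rose at E14.5 by 2.66 (SE 0.29, edgeR adjusted p = 1.18e-05).

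Other genes, picked because they had a level at E10.5 and less at E11.5, are listed beside these falls. The summed levels of whole marker lists did not fall with them. Summed heart markers went from 7.71 ± 1.35 to 12.75 ± 2.02 CPM (SD, n = 3) at this step. That sum includes Ryr2, whose mean level rose. Smooth muscle markers without Des went from 50.6 ± 16.8 to 49.4 ± 1.06 CPM. The median log2 fold change was -0.24 for the heart list and -0.23 for the smooth muscle list with Des. Over all genes it was -0.04. Estimates were below 0 for 6 of the 11 heart markers tested and 6 of the 9 smooth muscle markers tested. Myl7, the atrial light chain, went from 0.969, 1.07 and 0.848 CPM to 0.0986, 0.16 and 0.0623 CPM, a log2 fold change of -3.17 (SE 0.53, edgeR adjusted p = 0.000758). Itga7, the integrin of the muscle membrane, was called lower at the same step, -2.88 (SE 0.41, edgeR adjusted p = 0.000216), and Heyl, a Notch target also made in vessel walls, was lower by a log2 fold change of -2.28 (SE 0.20, edgeR adjusted p = 5.14e-06). Desmin is shared with smooth muscle. The part of other cells in the levels of Des and Actn3 at E10.5 was not tested.

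Actn2, the alpha-actinin that crosslinks actin at the Z-disc, measured 1.00, 0.85 and 0.973 CPM at E10.5, 1.12, 1.82 and 1.22 at E11.5, 10.2, 22.1 and 15.5 at E12.5 and 139, 138 and 112 at E14.5. Unlike Actn3 it was higher in every E12.5 library than in any earlier one, by 3.31 (SE 0.27, edgeR adjusted p = 2.23e-06), and again at E14.5, by 2.95 (SE 0.22, edgeR adjusted p = 4.13e-07). Myoz2, calsarcin of slow and cardiac muscle, had 1 count over the 3 E10.5 libraries and measured 0, 0 and 0.0314 CPM at E10.5, 0.0329, 0.16 and 0 at E11.5, 1.09, 3.49 and 1.42 at E12.5 and 13.5, 12.7 and 9.63 at E14.5. Every E12.5 library exceeded every earlier one, with a step of 4.68 (SE 0.68, edgeR adjusted p = 0.000163) and a further 2.49 (SE 0.42, edgeR adjusted p = 0.000376), and the E14.5 level was 1129 times that of E10.5 with an exact 95% counting interval of 202.1 to 44620.0. Both of its calls were lost when the outside-gene share entered as a covariate.

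Ldb3, a PDZ and LIM domain protein of the Z-disc, measured 0.156, 0.0315 and 0.283 CPM at E10.5, 0.23, 0.287 and 0.0935 at E11.5, 0.99, 2.82 and 1.62 at E12.5 and 32.3, 31.3 and 25.3 at E14.5, and its largest step was the last, 3.96 (SE 0.34, edgeR adjusted p = 1.57e-06), after 2.92 (SE 0.48, edgeR adjusted p = 0.000375). Myoz1, the fast calsarcin, measured 0.313, 0.409 and 0.471 CPM at E10.5, 0.23, 0.0319 and 0.218 at E11.5, 0.415, 0.449 and 0.429 at E12.5 and 1.6, 2.26 and 2.09 at E14.5. Its E12.5 libraries lay close together and its E12.5 call, 1.20 (SE 0.47, edgeR adjusted p = 0.0483), was lost in 11 of the 12 fits that leave out 1 library (0.71 with adjusted p = 0.164 without E11.5 replicate 2). Tcap, Myot and Xirp1 rose at E12.5 by 1.93, 2.00 and 2.83 and at E14.5 by 2.99, 2.67 and 3.76.

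Genes for assembly and protection of the filaments, chaperones and muscle Kelch proteins among them, counted 2 of 5 higher at E11.5 and 5 of 5 at both later steps. The E11.5 count was 0 when any E10.5 library, E11.5 replicate 2 or E14.5 replicate 2 was left out, and 3 without E12.5 replicate 1 or 2. Klhl41 (ENSMUSG00000075307, chromosome 2, 69670120 to 69684230, plus strand) measured 0.469, 0.598 and 0.691 CPM at E10.5, 0.986, 2.07 and 0.903 at E11.5, 4.54, 9.13 and 5.74 at E12.5 and 56.5, 57.5 and 50.0 at E14.5. Its first step, 1.14 (SE 0.39, edgeR adjusted p = 0.0477), was lost without any 1 of the 3 E10.5 libraries, E11.5 replicate 2 or E14.5 replicate 1 or 2 (adjusted p up to 0.261), and 2.08 (SE 0.30, edgeR adjusted p = 0.000143) and 3.00 (SE 0.26, edgeR adjusted p = 1.44e-06) followed. Smyd1, a methyltransferase that works with the myosin chaperone Unc45b, measured 0.469, 0.724 and 0.879 CPM at E10.5, 0.591, 1.53 and 0.685 at E11.5, 4.28, 10.1 and 5.31 at E12.5 and 70.0, 67.4 and 54.0 at E14.5. Its first 2 stages overlapped, and it then rose by 2.59 (SE 0.37, edgeR adjusted p = 0.000135) and 3.20 (SE 0.30, edgeR adjusted p = 3e-06).

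Smpx, a small cytoskeletal muscle protein, had no count in any E10.5 library and measured 0, 0 and 0 CPM at E10.5, 0.0329, 0.16 and 0.187 at E11.5, 0.543, 1.67 and 0.462 at E12.5 and 10.5, 10.7 and 10.6 at E14.5. Set against 3 counts for the whole stage, it was at least 4.07-fold higher at E11.5, a call lost when any of 7 libraries was left out, and at least 338-fold higher at E14.5 than at E10.5. It rose by 2.57 (SE 0.61, edgeR adjusted p = 0.00515) and 3.48 (SE 0.44, edgeR adjusted p = 7.87e-05) at the later steps. Klhl40 measured 0.0313, 0.0315 and 0.0942 CPM at E10.5, 0.263, 0.255 and 0.156 at E11.5, 0.479, 2.12 and 1.39 at E12.5 and 12.5, 11.8 and 9.99 at E14.5, and its steps were 2.33 (SE 0.47, edgeR adjusted p = 0.00142) and 3.03 (SE 0.37, edgeR adjusted p = 2.59e-05). Exons of Klhl40 share 21.6% of their bases with another gene. With the covariate, the E12.5 estimates of Smpx and Klhl40 were below 0 and not called.

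Of the 9 genes of excitation and calcium handling, 1 was higher at E11.5 (11.1%, against 12.2% of all genes). Their log2 fold changes ran from -1.84 to 2.10 at that step, with a median of 0.04, and without E10.5 replicate 1 none was called higher and Casq1 was called lower. At E12.5 and E14.5, 9 of 9 rose. Casq2, a calcium buffer of the sarcoplasmic reticulum, measured 0.156, 0.126 and 0.251 CPM at E10.5, 0.657, 1.25 and 0.467 at E11.5, 3.83, 10.8 and 4.95 at E12.5 and 54.8, 53.5 and 48.0 at E14.5. It stepped up at each stage, by 2.10 (SE 0.65, edgeR adjusted p = 0.031), 2.83 (SE 0.39, edgeR adjusted p = 0.000116) and 2.92 (SE 0.31, edgeR adjusted p = 1.03e-05), the first of which was lost without any of the 3 E10.5 libraries or E11.5 replicate 1 or 2 (adjusted p = 0.0503 to 0.151). Atp2a1, the fast calcium pump SERCA1, measured 0.500, 0.661 and 1.1 CPM at E10.5, 0.756, 0.798 and 0.81 at E11.5, 4.5, 7.05 and 6.59 at E12.5 and 45.7, 41.9 and 34.1 at E14.5. The first 6 libraries overlapped, the later 2 stages did not, and the steps were 2.72 (SE 0.23, edgeR adjusted p = 3.75e-06) and 2.67 (SE 0.19, edgeR adjusted p = 3.5e-07). Exons of Atp2a1 share 21.9% of their bases with Rabep2.

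Cacna1s, the voltage sensor of the transverse tubule, had 2 counts over the E11.5 libraries and measured 0.0313, 0.157 and 0.0628 CPM at E10.5, 0, 0.0638 and 0 at E11.5, 0.575, 1.09 and 1.65 at E12.5 and 14.2, 15.7 and 10.5 at E14.5. The E12.5 level was 51.6 times that of E11.5 with an exact 95% counting interval of 13.9 to 431.5, and the E14.5 step was 3.54 (SE 0.37, edgeR adjusted p = 8.16e-06). Cav3, caveolin of the muscle membrane, also had 2 counts at E11.5 and measured 0, 0 and 0.0314 CPM at E10.5, 0.0329, 0.0319 and 0 at E11.5, 0.224, 1.12 and 0.33 at E12.5 and 10.4, 10.6 and 8.81 at E14.5. It was 26.3 times higher at E12.5 than at E11.5, with an interval of 6.92 to 222.8, and rose by 4.06 (SE 0.45, edgeR adjusted p = 1.26e-05) at E14.5. Every library of the later stages was above those before it for both genes. The E12.5 estimate of Cav3 was below 0 with the covariate.

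Ryr1, the calcium release channel that Cacna1s opens, was present well before its sensor and measured 7.38, 3.97 and 8.26 CPM at E10.5, 7.00, 6.93 and 7.07 at E11.5, 11.8, 10.2 and 13.8 at E12.5 and 86.7, 84.2 and 66.2 at E14.5. The E12.5 step was small, 0.55 (SE 0.19, edgeR adjusted p = 0.0278), and was lost when any E11.5 library or E12.5 replicate 1 or 3 was left out (adjusted p = 0.0660 to 0.105), while the E14.5 step was 2.66 (SE 0.18, edgeR adjusted p = 2.58e-07). Casq1, the fast calsequestrin, measured 0.469, 0.567 and 1.04 CPM at E10.5, 0.493, 0.415 and 0.343 at E11.5, 2.17, 2.15 and 1.91 at E12.5 and 6.11, 5.16 and 5.89 at E14.5. Its E14.5 step, 1.38 (SE 0.24, edgeR adjusted p = 0.000416), was smaller than that of every other member called at that step. Cacng1, Trdn and Stac3, partners of the sensor and the release channel, rose by 2.43, 3.20 and 1.68 at E12.5 and by 2.59, 3.35 and 2.55 at E14.5, the first of these not called without E12.5 replicate 2 (1.51 with adjusted p = 0.0803).

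The 3 acetylcholine receptor genes moved together. None of the 3 was called at E11.5 with edgeR, limma-voom or DESeq2, and 0 had an unadjusted p under 0.05, while 3 of 3 rose at both later steps. Chrna1 (ENSMUSG00000027107, chromosome 2, 73563215 to 73580338, minus strand) measured 0.532, 0.315 and 0.188 CPM at E10.5, 0.296, 0.766 and 0.623 at E11.5, 2.94, 7.63 and 2.97 at E12.5 and 39.2, 36.9 and 35.4 at E14.5, and rose by 2.79 (SE 0.43, edgeR adjusted p = 0.000239) and 2.96 (SE 0.34, edgeR adjusted p = 1.77e-05). Chrng (ENSMUSG00000026253, chromosome 1, 87204657 to 87212694, plus strand), the subunit of the fetal receptor, measured 0.438, 0.472 and 0.251 CPM at E10.5, 0.427, 0.447 and 0.125 at E11.5, 2.08, 4.62 and 3.07 at E12.5 and 27.2, 25.5 and 20.7 at E14.5, and rose by 3.07 (SE 0.39, edgeR adjusted p = 6.49e-05) and 2.83 (SE 0.30, edgeR adjusted p = 8.87e-06). Chrnd, the delta subunit gene 4586 bases from Chrng on chromosome 1, measured 0.156, 0.252 and 0.188 CPM at E10.5, 0.23, 0.192 and 0.218 at E11.5, 0.639, 1.35 and 0.923 at E12.5 and 14.2, 12.5 and 11.1 at E14.5, and rose by 1.95 (SE 0.33, edgeR adjusted p = 0.00041) and 3.62 (SE 0.25, edgeR adjusted p = 2.8e-07). For all 3 genes E12.5 was above both earlier stages in every library and E14.5 above E12.5.

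The 2 genes for energy and oxygen were not called at E11.5 and rose at both later steps. Ckm, muscle creatine kinase, had no count in any library at E10.5 or E11.5 and measured 0.0319, 0.385 and 0.0989 CPM at E12.5 and 5.76, 5.09 and 3.83 CPM at E14.5. It was at least 5.39-fold higher at E12.5 than at E11.5 and at least 154-fold higher at E14.5 than at E10.5, and the last step was 4.72 (SE 0.57, edgeR adjusted p = 0.000138). Mb, myoglobin, measured 0.25, 0.22 and 0.126 CPM at E10.5, 0.0657, 0.0638 and 0.0935 at E11.5, 0.351, 0.929 and 0.429 at E12.5 and 3.05, 3.00 and 2.68 at E14.5, and rose by 2.67 (SE 0.51, edgeR adjusted p = 0.000973) and 2.26 (SE 0.35, edgeR adjusted p = 0.00017). The E11.5 libraries of Mb all lay under those of E10.5, with a log2 fold change of -1.41 that was not called. Of the exon bases, 15.5% in Ckm and 31.9% in Mb are shared with other genes.

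**Figure D3:**
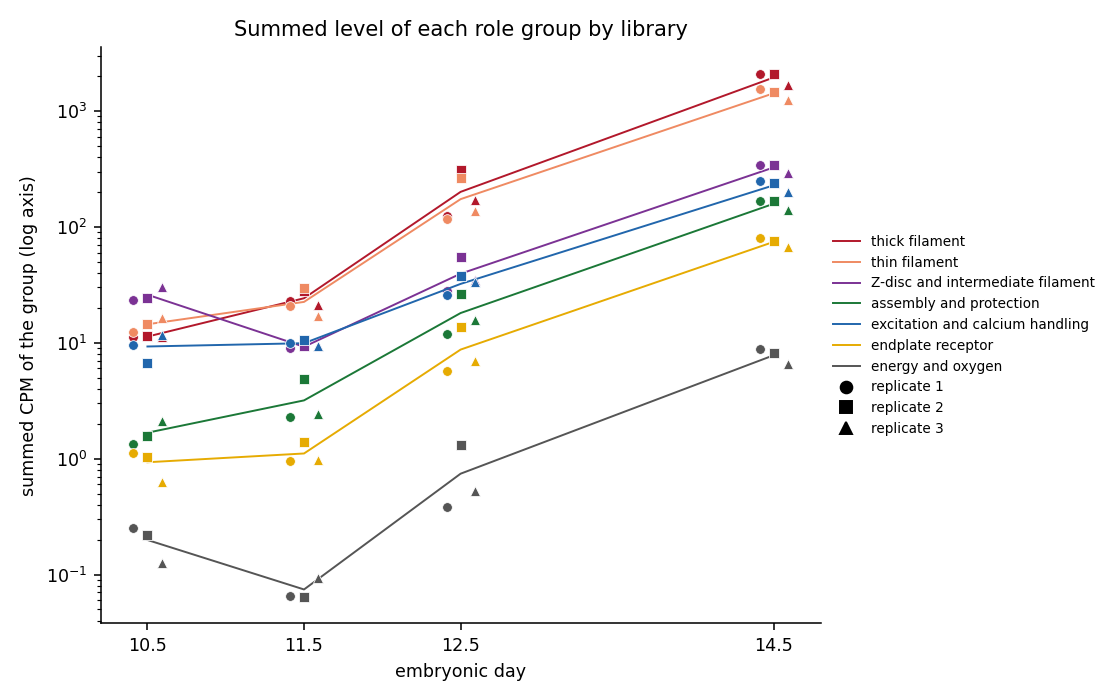
Summed CPM of each role group (log axis) against embryonic day, with a point per library (shape by replicate) and a line through the stage means. Z-disc and intermediate filament genes dip at E11.5, as do the energy and oxygen genes at under 1 CPM. Every group climbs after E11.5, and the squares (replicate 2) top the E12.5 points.

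Divided by length (CPM per kilobase of merged exon), Actc1 stood first at E14.5 with 351.5 ± 37.7 (SD, n = 3), above Mylpf (148 ± 14.3), Acta1 (128 ± 11.0) and Myh3 (117 ± 15.5), whose ranges overlap their neighbours. Tnnc1 followed with 84.8 ± 9.91, apart from Myh3 above it and from Tnnt1 (52.7 ± 7.16) and Myl1 (51.7 ± 4.34) after it, which overlap each other. Actn2 (34.1 ± 4.09) overlapped Tnnt3 (32.4 ± 2.28), and Des (29.5 ± 1.64) overlapped Tnni1 (29.4 ± 2.51). Chrna1 stood at 8.48 ± 0.440, above Chrng at 5.88 ± 0.810 and Chrnd at 3.84 ± 0.475, Ryr1 at 3.62 ± 0.513 and Ttn at 3.47 ± 0.522. The lowest of all were Xirp1 (0.931 ± 0.158), Trdn (0.693 ± 0.0817) and Mybpc2 (0.0395 ± 0.0458). This order holds for merged exon length only and can differ by transcript length. Merged exons and longest transcript are 1041 and 721 bases in Tnnc1, 2204 and 1059 in Tnnt1, and 4163 and 2780 in Chrng. In Myh3 they are 6057 and 6031 bases, and in Chrna1 both are 4386.

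Where 2 or 3 paralogs do similar work in slow, fast, embryonic or heart muscle, the share of each was taken per length within a library, which needs no scaling between libraries. With 3 libraries against 3, the smallest exact two-sided permutation p is 0.1, so none of the 12 shares can pass 0.05. Acta1 made up 5.84, 2.54 and 1.22% at E10.5, 10.6, 5.91 and 9.63 at E11.5, 13.7, 18.4 and 20.2 at E12.5 and 26.8, 26.0 and 27.6 at E14.5 of Acta1 and Actc1 together. The E14.5 libraries were all above those of E12.5 (means 17.4% ± 3.35 and 26.8% ± 0.819, exact permutation p = 0.1, adjusted 0.12 over the 12 shares), so the actin of the heart form stayed the larger part. Tnnt3 made up 17.1, 17.7 and 23.9% at E10.5, 18.4, 16.6 and 22.3 at E11.5, 9.99, 19.2 and 13.9 at E12.5 and 32.9, 32.8 and 36.7 at E14.5 of the troponin T sum. Its share at E14.5, 34.2% ± 2.23, was above every earlier library (exact permutation p = 0.1 against E12.5, adjusted 0.12).

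Among the 3 myosin heavy chains, Myh3 held 63.1% ± 14.2 at E10.5, 87.05% ± 3.09 at E11.5, 88.9% ± 0.0348 at E12.5 and 83.6% ± 0.363 at E14.5. Its E12.5 and E14.5 libraries did not overlap. Myh8 held 12.6% ± 4.91 at E10.5, 9.59% ± 1.60 at E11.5, 7.5, 7.52 and 6.79% at E12.5 and 13.8, 13.5 and 13.4% at E14.5. Myh7 went from 24.3% ± 9.82 at E10.5 to 2.89% ± 0.207 at E14.5. These shares were tighter at E12.5 than the levels themselves: replicate 2 held more than 1.5 times the Myh3 of its partners and the same share of the sum. Each change from E12.5 to E14.5 had an exact permutation p of 0.1 (adjusted 0.12). The size of these shares depends on the length used. Merged exons of Myh8 span 11772 bases and its longest transcript 6149, while those of Myh3 are 6057 and 6031. By transcript length the Myh8 shares would be higher and the Myh3 shares lower than those given.

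Casq1 and Casq2 exchanged places. Casq1 held 80.8, 86.3 and 85.3% at E10.5, 51.3, 31.9 and 50.7 at E11.5, 44.3, 21.9 and 35.2 at E12.5 and 13.5, 11.9 and 14.7 at E14.5 of their sum. Shares went from 80.8% or more in each E10.5 library to 14.7% or less in each E14.5 library, and E12.5 and E14.5 did not overlap (exact permutation p = 0.1, adjusted 0.12). Actn3 went from 87.7% ± 4.9 of the actinin pair at E10.5 to 69.7% ± 5.88, 20.3% ± 0.333 and 17.2% ± 0.298 at the later stages, the last 2 without overlap. Actn3 and Casq1, fast fibre forms, both had their largest mean shares at E10.5. Actn3 stood at few CPM there, while Casq1 and Casq2 both averaged under 1 CPM. The fast forms Tnni2, Myoz1 and Mybpc2, each also under 1 CPM at E10.5, had their largest mean shares there too. Fast Tnnt3 had its largest at E14.5.

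Of the troponin I pair, Tnni2 held 62.9% ± 17.9 at E10.5, 36.3% ± 11.95 at E11.5, 22.0% ± 3.86 at E12.5 and 29.6% ± 0.457 at E14.5. Tnnt2, the heart troponin T, held 6.47% ± 1.39 of the troponin T sum at E12.5 and 10.6% ± 0.618 at E14.5. For both shares, E12.5 and E14.5 did not overlap (exact permutation p = 0.1, adjusted 0.12). Mybpc2 held 41.5% ± 26.3 of the binding protein C pair at E10.5 and 0.208, 0 and 0.85% at E14.5 as Mybpc1 grew. Myoz1 held 98.8% ± 2.05 of the calsarcin pair at E10.5, when Myoz2 had 1 count. It held 31.7% ± 11.5 and 23.4% ± 5.36 at E12.5 and E14.5, which overlapped (exact permutation p = 0.3, adjusted 0.327). The fetal Chrng held 99.4% ± 0.519 of Chrng and Chrne at E14.5, Chrne being the adult subunit that was nearly without counts (exact permutation p = 0.4, adjusted 0.4).

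**Figure D4:**
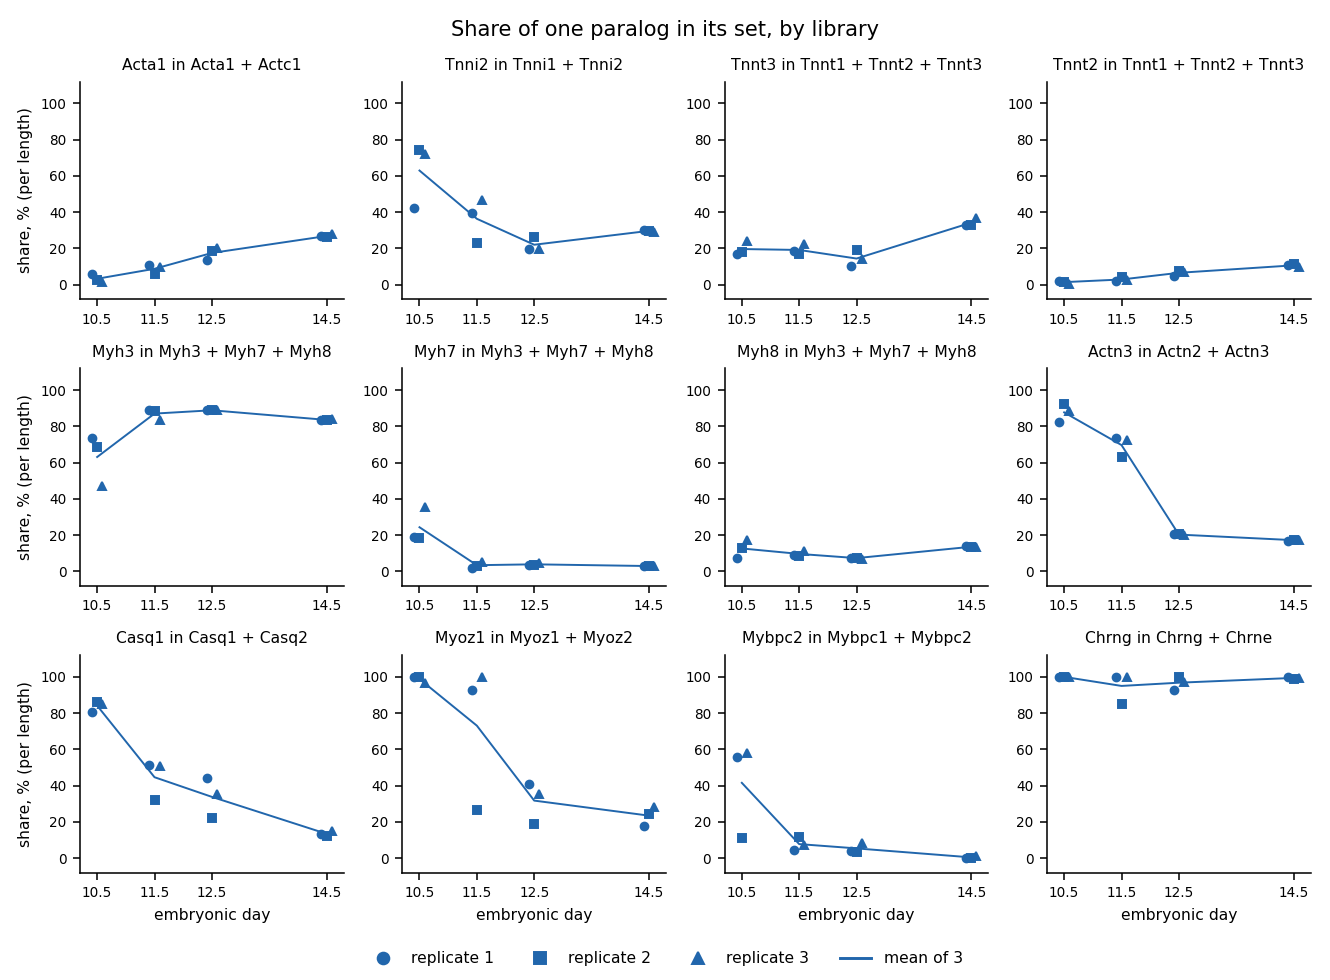
Share in percent of 1 paralog in its pair or set, per kilobase, against embryonic day, with a point per library (shape by replicate) and a line through the means, in 12 panels. Acta1, Tnnt2 and Tnnt3 end higher than at E12.5, Actn3 and Casq1 descend from 80.8% or more at E10.5, and Myoz1 is scattered from 26.6% upward at E11.5.

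E12.5 replicate 2 held more of nearly every muscle message than the other 2 libraries of its stage. It was the highest of the 3 in 46 of the 51 members, while 27.25% of the 14641 genes with a mean of at least 1 CPM at E12.5 were highest in it. Over the 39 members at or above that mean, the median ratio of replicate 2 to the mean of replicates 1 and 3 was 1.96 (range 0.797 to 4.13), beside 0.977 over all such genes. Replicate 1 was the lowest in 45 members. The median coefficient of variation of members above 1 CPM was 25.2% at E10.5 (10 genes), 21.5% at E11.5 (18), 45.4% at E12.5 (39) and 12.4% at E14.5 (50). At E14.5, replicate 3 was the lowest in 46 members and in 24.89% of those other genes. Muscle regulators did not all share the E12.5 pattern. Myod1 measured 7.79, 11.1 and 11.4 CPM there and Myog 17.4, 31.0 and 18.6 CPM, so that Myog was highest in replicate 2 and Myod1 was not.

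Among the genes that direct muscle formation, Myod1, Myog and Mymk rose at each of the 3 steps. Myod1, which commits cells to the muscle lineage, measured 0.406, 0.441 and 0.345 CPM at E10.5, 2.17, 1.88 and 2.37 at E11.5, 7.79, 11.1 and 11.4 at E12.5 and 44.0, 42.8 and 39.5 at E14.5. No consecutive stages overlapped, and it rose by 2.38 (SE 0.21, edgeR adjusted p = 4.81e-06), 2.02 (SE 0.15, edgeR adjusted p = 1.3e-06) and 1.99 (SE 0.14, edgeR adjusted p = 2.57e-07). Myog, which drives differentiation, measured 1.31, 1.26 and 1.35 CPM at E10.5, 4.17, 5.81 and 2.87 at E11.5, 17.4, 31.0 and 18.6 at E12.5 and 122, 116 and 105 at E14.5, and rose by 1.67 (SE 0.30, edgeR adjusted p = 0.00134), 2.17 (SE 0.24, edgeR adjusted p = 2.48e-05) and 2.28 (SE 0.22, edgeR adjusted p = 4.1e-06). Mymk, the fusion protein myomaker, had 1 of 3 libraries with a count at E10.5 and measured 0.164, 0.447 and 0.249 CPM at E11.5, 2.11, 3.97 and 3.76 CPM at E12.5 and 28.0, 26.8 and 23.2 CPM at E14.5. It rose by 3.27 (SE 0.33, edgeR adjusted p = 1.28e-05) and 2.92 (SE 0.25, edgeR adjusted p = 1.51e-06) at the later steps. Cdh15, the myoblast cadherin, rose from E12.5 on, by 1.57 and 2.55.

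Of the 22 regulators listed, 4 were higher (with Pax3) and 5 lower (Myf5, Msc, Tbx1, Six4 and Heyl) at E11.5, 14 and 1 at E12.5, and 17 and 4 at E14.5, with medians of -0.04, 0.75 and 1.58. These are to be read beside 12.2%, 27.1% and 23% of all genes called higher at the 3 steps and 12.9%, 22.2% and 24% called lower. At E11.5, Myf5 was not called without E10.5 replicate 3 (-0.76 with adjusted p = 0.163) or without any 1 of the E11.5 libraries (adjusted p = 0.0632 to 0.0769). Pax3, also a neural crest factor, moved against the rest at E12.5: it measured 29.8, 25.4 and 14.7 CPM at E10.5, 69.3, 72.5 and 65.4 at E11.5, 10.4, 4.65 and 17.9 at E12.5 and 24.9, 36.5 and 29.0 at E14.5, and fell with a log2 fold change of -2.89 (SE 0.36, edgeR adjusted p = 5.64e-05) after a rise of 1.52 (SE 0.34, edgeR adjusted p = 0.00514). Tbx1, a factor of pharyngeal mesoderm and palate, rose by 3.29 (SE 0.31, edgeR adjusted p = 7.72e-06) at E12.5, and its E14.5 libraries overlapped those of E12.5. Six4 and Eya1, which act upstream of the myogenic factors and also in mesenchyme and epithelium, fell at E14.5, with log2 fold changes of -1.05 (SE 0.09, edgeR adjusted p = 2.2e-06) and -0.99 (SE 0.11, edgeR adjusted p = 1.17e-05). Myf6, a late myogenic factor, and Lbx1, known from migrating muscle precursors, stayed near 0 until E12.5 and reached 1.14 ± 0.112 and 0.779 ± 0.26 CPM at E14.5.

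**Figure D5:**
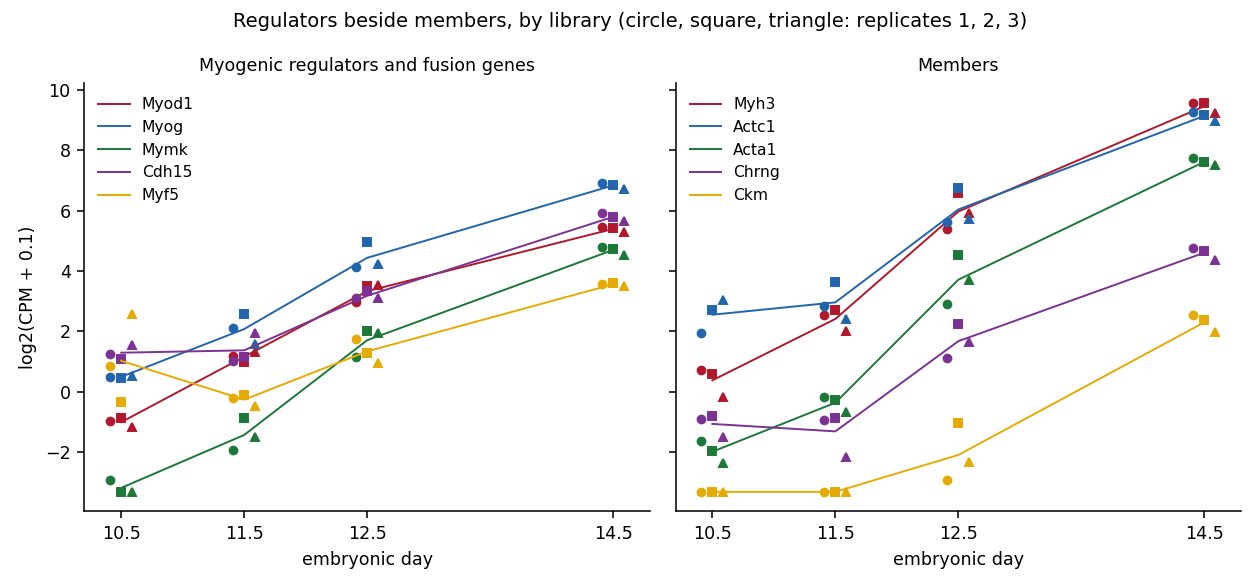
Log2(CPM + 0.1) against embryonic day for 5 regulators and fusion genes (left) and 5 members (right), with a point per library (shape by replicate) and lines through the stage means. Myod1, Myog and Mymk climb from E10.5 on, whereas Chrng and Ckm stay level until E11.5 and climb after it.

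Other sarcomere and fibre genes, 38 in all with 34 tested, counted 8 higher and 6 lower at E11.5, 20 and 3 at E12.5, and 26 and 1 at E14.5, with medians of -0.09, 0.99 and 1.89. For this list and those below, the shares of all genes called higher at the 3 steps were 12.2%, 27.1% and 23%. Those called lower were 12.9%, 22.2% and 24%. The adult fast heavy chains appeared only at low level: Myh1 reached 13.4, 13.9 and 11.8 CPM, Myh2 1.42, 1.31 and 1.12 CPM and Myh4 0.59, 0.53 and 0.413 CPM at E14.5, with last steps of 4.66, 6.34 and 3.06 that were all called. Csrp3 and Mypn, proteins of the Z-disc, rose at E14.5 by 3.40 and 3.22 and also at E12.5. Trim54 had no count before E12.5 and measured 2.29, 1.98 and 2.09 CPM at E14.5. Myh14, a nonmuscle myosin, went the other way at E14.5, -1.37 (SE 0.36, edgeR adjusted p = 0.00751). The tropomyosins, which nonmuscle cells also make, were abundant from the start: Tpm1 averaged 251 ± 37.3 CPM at E10.5 and 498 ± 23.0 CPM at E14.5, Tpm3 436 ± 15.5 and 351 ± 2.11, and Tpm2 35.2 ± 7.55 and 241 ± 20.5.

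Other genes of excitation and calcium handling (26 of 27 tested) counted 3 higher and 10 lower at E11.5, 12 and 3 at E12.5, and 17 and 0 at E14.5, the last with 0 lower also at an unadjusted p under 0.05 with edgeR, limma-voom and DESeq2. Sln, the calcium pump inhibitor sarcolipin, rose by 3.26 and 3.03, and Hrc, a calcium-binding protein of the reticulum lumen, by 1.30 and 3.66. Scn4a, the muscle sodium channel, was called at E14.5 alone, 3.46 (SE 0.40, edgeR adjusted p = 1.83e-05), at 5.83, 4.31 and 3.15 CPM. Ryr2, the heart form of the release channel, moved differently from Ryr1: it averaged 0.889 ± 0.345, 5.97 ± 1.54, 2.96 ± 1.06 and 4.5 ± 0.207 CPM.

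At the endplate and the membrane, 7 of 19 tested genes were higher and 2 lower at E11.5, 11 and 2 at E12.5, and 15 and 1 at E14.5. Chrnb1, the beta subunit of the receptor, rose by 2.87 and 1.97. Musk, Rapsn and Dok7, which gather the receptor under the nerve, rose by 1.60, 2.44 and 2.05 at E12.5 and by 3.40, 2.60 and 2.45 at E14.5. Ache and Colq, the enzyme of the synaptic cleft and its anchor, averaged 20.4 ± 2.35 and 4.49 ± 0.952 CPM at E14.5. Dtna, a dystrophin partner also found outside muscle, fell at E14.5, with a log2 fold change of -1.09 (SE 0.12, edgeR adjusted p = 1.22e-05).

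Muscle energy genes outside the members (12 of 14 tested) counted 0 higher and 4 lower at E11.5, 6 and 2 at E12.5, and 8 and 0 at E14.5. At an unadjusted p under 0.05, edgeR found 2 higher at E11.5 and 0 lower at E14.5, as did limma-voom and DESeq2. Pygm, muscle glycogen phosphorylase, rose by 1.88 and 2.69, and Ampd1, AMP deaminase of muscle, by 2.69 and 4.50. Eno3, the muscle enolase, and Ldha, a lactate dehydrogenase subunit of many tissues, fell at E11.5, with log2 fold changes of -1.97 (SE 0.14, edgeR adjusted p = 6.24e-07) and -0.96 (SE 0.15, edgeR adjusted p = 0.000419).

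Several members are also made in heart, and desmin in smooth muscle, so markers of both were read beside the members. Of the 16 heart markers, 11 were tested, with 2 higher and 1 lower at E11.5, 3 and 2 at E12.5, and 6 and 1 at E14.5, and their sum was 6.8 to 9.26, 10.8 to 14.8, 10.7 to 16.6 and 35.8 to 40.4 CPM at the 4 stages. At E12.5 these counts are near the shares of all genes, 27.1% called higher and 22.2% lower. The 8 heart markers that are on no other muscle list summed to 4.1 to 4.61, 4.8 to 5.71, 4.73 to 6.36 and 6.64 to 8.19 CPM. Among these, Nppa, of whose exon bases 61.5% are shared with another gene, had a count in 1 of the 12 libraries. Gata4 and Bmp10 stayed at or near 0, and Nkx2-5 and Tbx5 averaged 0.751 ± 0.221 and 0.623 ± 0.258 CPM at E14.5. These named genes hold only a small part of the E14.5 sum of the 8, 7.57 ± 0.817 CPM, which also counts Tbx20, Hcn4 and Nppb. Tbx20 was called higher at E12.5, a call lost in 3 of the 12 fits that leave out 1 library. The part of heart-like messages in the members' levels was not tested.

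Of the 10 smooth muscle markers, 9 were tested, with 0 higher and 1 lower at E11.5, 5 and 0 at E12.5, and 7 and 0 at E14.5. Des itself is on this list. It is the 1 marker called lower at E11.5 and is among those called higher at both later steps. At an unadjusted p under 0.05, 0 were higher at E11.5 and 0 lower at the later steps with edgeR, limma-voom and DESeq2. Without Des they summed to 36.2 to 69.2, 48.8 to 50.6, 97.3 to 135 and 384 to 418 CPM. Acta2, smooth muscle alpha-actin, which young skeletal muscle also makes, rose from 9.98 ± 0.424 to 57.1 ± 19.1 and 276 ± 19.1 CPM, and Myh11, the smooth muscle heavy chain, to 8.61 ± 1.81 CPM. The part of smooth muscle in the rise of Des was not tested.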

How the data were processed

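Polyadenylated RNA of 12 maxillary prominence libraries was analysed. The deposited files hold whole-number read counts per Ensembl gene (53801 identifiers), with no normalization seen in the values. Tools named in the submitters' processing notes, with no role given, are STAR 2.7.3a, HTSeq 0.12.4 and FastQC, and the build is mm10. How strand was set and which annotation was counted is not given in the sources used here. Per the labels' protocols libraries were made with the NEBNext Ultra RNA kit, and no step described there marks strand. Reads in shared exons or paralogs can be lost: 7 members share over 10% of their exon bases with other genes.

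Members and lists were chosen with earlier results of these data known. Symbols, lengths and coordinates came from GENCODE M21. Counts were fitted with edgeR 4.0.16 in R 4.3.3 (TMM, filterByExpr with a minimum count of 10, 1 mean per stage over 12 libraries, 8 residual degrees of freedom), and SE is the log2 fold change over the root of F. The fit was tested on simulated data. Paralog shares were compared with an exact two-sided permutation test. Where a stage had no count, the fold is a bound computed from 3 counts, and such floors and 95% intervals cover counting error only. Values per library are given for up to 4 genes of each role: the 2 highest per length at E14.5 and the 2 with the largest change among the rest, besides paralogs and exceptions. From each other list the 3 largest called changes at each later step were taken, and the text names a selection of these; some genes counted in the lists are not reported here by name. Myod1, Myog, Cdh15, Myh4, Dok7, Ache, Tpm1, Tpm2, Tpm3, Ryr2 and the genes set beside Des were named after their values were seen. Alternatives were DESeq2 1.42.0, limma-voom (limma 3.58.1), other size factors, no filter, 2 stages only, a replicate block, the outside-gene share as a covariate, other lengths and each library left out.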

Additional observations from a re-analysis of the deposited data

How the results depend on the processing

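At E11.5 against E10.5, the count of members called higher went from 8 to 20 with no filter on low counts, 4 with limma-voom and 15 with DESeq2, and ranged from 3 to 17 with 1 library left out. The count called lower went from 2 to 4 with no filter and with DESeq2, and ranged from 2 to 4. At E12.5 against E11.5, 44 to 47 were higher with 1 library left out (48 with all), and the median stayed between 2.24 and 2.92. The covariate for alignments outside genes left 9 members and a median of 1.95 there, and over all genes 407 were called higher and 286 lower with it, against 4968 and 4079 without. With it the E12.5 estimates reversed for Myoz2 (-0.26), Klhl40 (-0.16), Smpx (-1.54), Cav3 (-0.18), Ryr1 (-0.056), Myf5 (-0.86) and Cox6a2 (-1.34), none called, and the cause was not tested. At E14.5 against E12.5, 50 were higher under every alternative run except the covariate (49, without Myoz2).

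With the replicate number as a block, 11, 47 and 50 members were higher and 3, 0 and 0 lower at the 3 steps. Same-numbered libraries correlated between -0.117 and 0.165, so the number was not taken to pair them. The changes of the paralog shares from E12.5 to E14.5 kept their direction with transcript length, with no length and with each library left out, but not their size. In percentage points, with no length Tnnt2 went from 4.12 to 11.6, Tnnt3 from 19.8 to 11.8, Tnni2 from 7.66 to 4.38, Myh3 from -5.32 to -8.63, Myh7 from -0.95 to -1.43, Myh8 from 6.27 to 10.1 and Chrng from 2.64 to 1.12, and with transcript length Myh3 was -8.56 and Myh8 9.94. Without E12.5 replicates 1 and 2, Myoz1 was -3.70 and -14.7 (-8.30 with all) and Chrng 0.72 and 4.24, and without E14.5 replicate 1 Myoz1 was -5.41. Members under 1 CPM rest on few counts, and at E10.5 that holds for 41 of the 51.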
